A study of Mus musculus with 12 samples.

Results

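*Hif1a*, which encodes the oxygen-regulated alpha subunit of hypoxia-inducible factor, and 9 enzymes of glycolysis (*Hk1*, *Hk2*, *Gpi1*, *Pfkl*, *Aldoa*, *Pgk1*, *Eno1*, *Pkm* and *Ldha*) were followed across 12 bulk RNA-seq libraries of mouse haematopoietic stem cells (HSCs). The 10 genes were taken by symbol from the deposited table, were 10 of its 24946 usable genes, and all 10 passed the filter on low values (at least 100 normalized counts in at least 3 libraries). The cells came from bone marrow of C57BL/6 mice, either wild type (WT) or lacking *Bst2* (KO), a gene encoding the interferon-induced membrane protein tetherin. Mice of each genotype were naive or had received 100 µg of recombinant mouse interferon-γ (IFN-γ), and cells were taken after 24 h, with 3 libraries in each of the 4 groups. HSCs had been sorted as lineage-negative, c-*Kit*+, CD150+, CD48- and CD34- cells, and how the *Bst2* allele was made, the animals' age and which mouse gave which library were not in the labels, and p-values therefore describe only how these libraries vary.

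Glycolysis splits glucose into pyruvate in the cytosol and yields a small amount of ATP without oxygen. Long-term HSCs lie in poorly oxygenated marrow and are known for relying on glycolysis rather than on mitochondrial respiration, and HIF-1α protein is known to raise transcription of glucose transporters, glycolytic enzymes and lactate dehydrogenase. HIF-1α is controlled mainly by oxygen-dependent hydroxylation and degradation of the protein, so its mRNA is a measure of the gene's RNA and not of its activity.

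The HIF complex binds DNA at a short core, A or G followed by CGTG, and the 250 bases upstream of the gene start were therefore read for all 10 genes from RefSeq (mouse build GRCm38.p6, 17 start sites, all 10 symbols matched). ACGTG, searched on both strands, was present in 7 of these 17 windows, or 41.2%, compared with 22.2% of the 10938 windows of the genes tested. ACGTG or GCGTG was present in 13 of 17 windows, or 76.5%, compared with 57.0% of the windows of the genes tested. Some windows of the same gene overlap and share a site, such as the ACGTG of *Aldoa*, so such sites enter more than once. By gene, 6 of 10 had ACGTG and 9 of 10 had either core in at least 1 window, and no count by gene was made over the genes tested. The palindrome CACGTG, which contains ACGTG on both strands and so counts as 2 matches, was present in 1 window each of *Hif1a* and *Ldha*. The windows of the enzyme with the most matches, *Ldha*, and of *Hk2* and *Pgk1* are shown because *Ldha* and *Hk2* stand at the opposite ends of the range of differences described below. Capitals mark each ACGTG on the shown strand or its complement CACGT, and the sequences run 5′ to 3′ on the gene's strand and end at the base before the start. *Ldha* has another start site in RefSeq whose window holds 0 ACGTG and is not shown. A match describes the letters and not binding.
*Ldha*, chr7:46845554-46845803, plus strand, 5 matches: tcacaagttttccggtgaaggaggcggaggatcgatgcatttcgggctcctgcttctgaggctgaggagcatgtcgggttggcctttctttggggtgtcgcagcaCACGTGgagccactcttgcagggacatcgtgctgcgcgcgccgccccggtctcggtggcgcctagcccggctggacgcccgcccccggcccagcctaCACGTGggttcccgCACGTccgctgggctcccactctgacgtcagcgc
*Hk2*, chr6:82774455-82774704, minus strand, 2 matches: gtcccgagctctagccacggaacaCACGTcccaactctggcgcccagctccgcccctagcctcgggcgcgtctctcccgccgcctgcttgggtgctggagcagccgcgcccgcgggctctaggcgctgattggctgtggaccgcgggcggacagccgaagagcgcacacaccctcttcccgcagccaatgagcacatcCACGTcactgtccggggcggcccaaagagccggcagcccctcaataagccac
*Pgk1*, chrX:106186850-106187099, plus strand, 2 matches: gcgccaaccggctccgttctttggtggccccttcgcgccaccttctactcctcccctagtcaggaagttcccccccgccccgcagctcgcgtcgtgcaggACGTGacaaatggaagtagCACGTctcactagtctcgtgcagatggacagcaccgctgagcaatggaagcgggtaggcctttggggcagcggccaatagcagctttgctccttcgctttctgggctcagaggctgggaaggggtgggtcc

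The deposited values are normalized counts per gene and are not divided by gene length, so levels are compared between libraries and not between genes. *Bst2*, the deleted gene, read 336, 152 and 1367 normalized counts in WT naive libraries 1 to 3 and 547, 606 and 1514 in WT IFN-γ libraries 1 to 3. The KO naive libraries read 3.67, 8.89 and 0, and the KO IFN-γ libraries 24.8, 18.8 and 0, all below every WT library. Library titles carry 1 of 3 code series whose meaning is not stated: R-09 holds WT naive 3, WT IFN-γ 3, KO naive 1 and KO IFN-γ 2, R-07 holds KO naive 2 and KO IFN-γ 3, and FL-06 holds the other 6. The R-09 libraries stood apart from the other 8. Their normalized totals were 13.8 to 14.6 M units against 16.1 to 17.7 M, and 68.0% of the 10816 genes tested differed between R-09 and FL-06. The depth, estimated from the step between low values, was about 0.495 M reads in WT naive 2 and 8.76 to 52.1 M in the other 11 libraries, so WT naive 2 is the least precise. Bulk libraries cannot tell fewer cells of a type from less RNA per cell.

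The largest differences of the glycolysis genes lay between code series. In R-09 against FL-06, all 10 genes passed the threshold (limma, Benjamini-Hochberg adjusted p below 0.05), 7 higher and 3 lower, where the background over all genes was 35.6% higher and 32.3% lower. The enzymes from *Gpi1* to *Ldha* were higher in R-09, from 1.52-fold for *Gpi1* to 5.08-fold for *Ldha*, while *Hif1a* and both hexokinases were lower. Their median log2 difference was 1.04, compared with 0.23 over all genes tested. For each of the 10 genes the 4 R-09 libraries lay wholly above or wholly below the other 8, as they did for 55.3% of all genes tested (29.3% above and 26.0% below), and the direction was the same within each of the 4 groups.

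**Figure D1:**
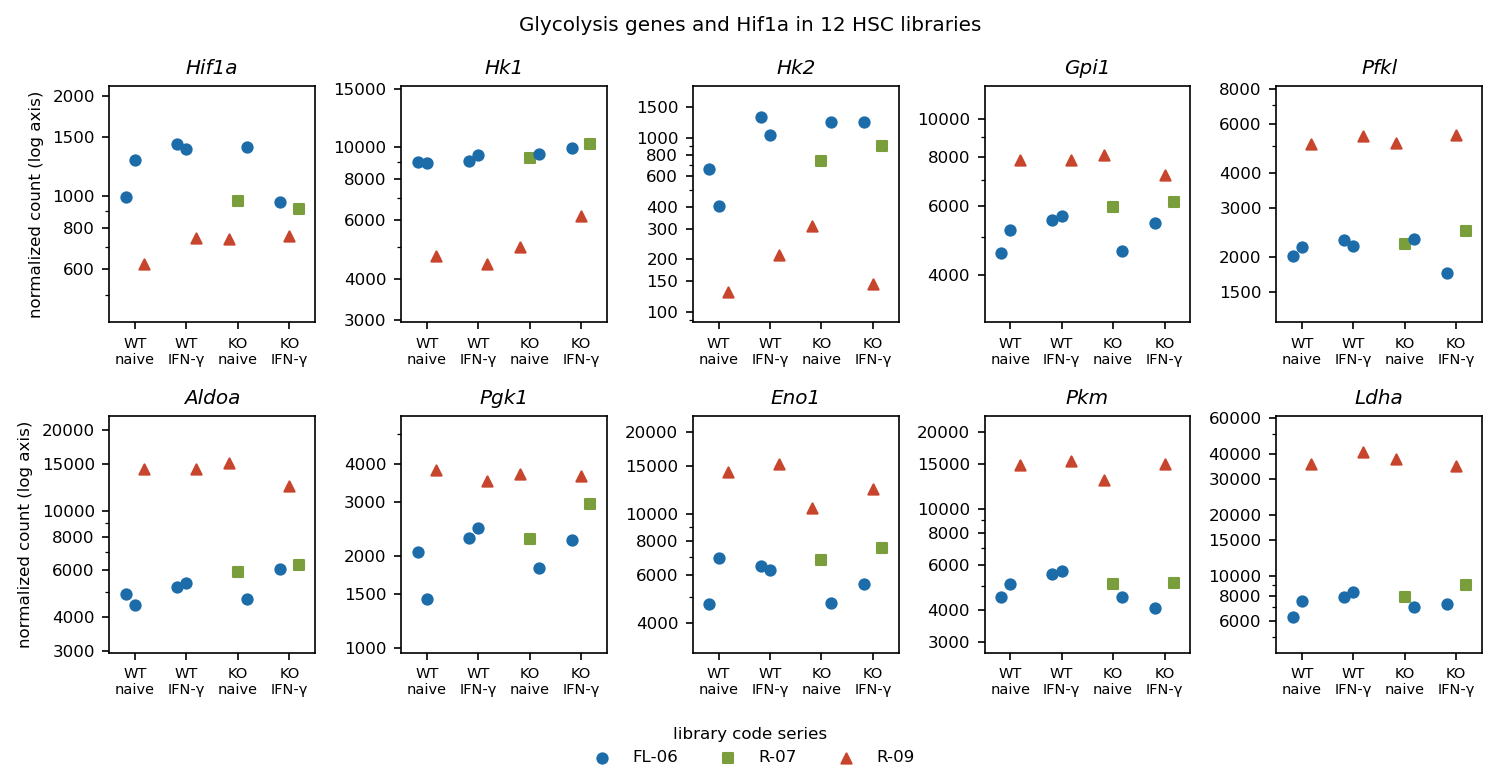
Normalized counts (log axis) of the 10 genes in the 12 libraries, 3 per group, with colour and shape giving the code series. The 4 R-09 libraries (red triangles) lie above the other 8 for *Gpi1*, *Pfkl*, *Aldoa*, *Pgk1*, *Eno1*, *Pkm* and *Ldha* and below them for *Hif1a*, *Hk1* and *Hk2*, in naive and IFN-γ libraries of both genotypes.

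*Hif1a* read 989, 1282 and 621 normalized counts in WT naive libraries 1 to 3 and 1429, 1383 and 743 in WT IFN-γ libraries 1 to 3. It read 742, 961 and 1405 in KO naive libraries 1 to 3 and 959, 756 and 909 in KO IFN-γ libraries 1 to 3. The R-09 library was the lowest in every group, while the ranges of the 4 groups overlapped. Over code series the level was 715 ± 63.1 in R-09 (mean ± SD, n = 4) and 1241 ± 213 in FL-06 (n = 6), a log2 difference of -0.78 (SE 0.15, adjusted p = 0.00081).

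*Hk1* and *Hk2* encode hexokinases, which phosphorylate glucose on entry, *Hk1* in most tissues and *Hk2* as the more inducible form. *Hk1* read 8983, 8926 and 4672 in WT naive libraries 1 to 3, 9081, 9439 and 4427 in WT IFN-γ, 4967, 9249.8 and 9516 in KO naive, and 9915, 6196 and 10186 in KO IFN-γ. Outside R-09 the 8 libraries lay within 8926 to 10186, and their SD on the log2 scale, 0.07, was the smallest of the 10 genes. *Hk1* was 1.89-fold lower in R-09 (log2 difference -0.92, SE 0.08, adjusted p = 8.96e-07).

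*Hk2* read 663, 405 and 130 in WT naive libraries 1 to 3, 1321, 1040.3 and 211 in WT IFN-γ, 312, 734 and 1229 in KO naive, and 1235, 144 and 896 in KO IFN-γ. *Hk2* was the most variable member by the moderated residual SD, which limma draws towards the trend of spread with level. That SD was 0.40 on the log2 scale against 0.12 to 0.23 for the other 9 and a median of 0.39 over all genes tested. In WT naive 2, 3 reads would be worth about 102 units by the rough depth, and *Hk2* would then rest on few reads. *Hk2* was 5.13-fold lower in R-09 (log2 difference -2.36, SE 0.26, adjusted p = 1.08e-05), and the difference within a group ranged from -3.09 to -1.97.

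*Gpi1* converts glucose 6-phosphate to fructose 6-phosphate, *Pfkl* is the liver-type subunit of phosphofructokinase, the committed step, and *Aldoa* splits the fructose bisphosphate into 3-carbon sugars. *Gpi1* lay between 7205 and 8101 normalized counts in R-09 and between 4531 and 6124 in the other 8 libraries (log2 difference from FL-06 0.60, SE 0.09, adjusted p = 7.69e-05). *Pfkl* lay between 5079.6 and 5458 in R-09 and between 1745 and 2467 elsewhere (1.33, SE 0.10, adjusted p = 4.71e-07). The gap for *Pfkl* was thus wide, while the highest *Gpi1* library outside R-09, KO IFN-γ 3, came close to the lowest inside it. *Aldoa* read 4901, 4435 and 14331 in WT naive libraries 1 to 3, 5212, 5371 and 14349 in WT IFN-γ, 15042, 5897 and 4689 in KO naive, and 6045, 12342 and 6301 in KO IFN-γ. The single R-09 library of each group was the high one (log2 difference 1.45, SE 0.10, adjusted p = 1.64e-07).

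*Pgk1* makes the first ATP gained by the pathway, *Eno1* makes phosphoenolpyruvate, and *Pkm*, pyruvate kinase, turns that into pyruvate with a further ATP. *Pgk1* lay between 3511 and 3819 in R-09 and between 1447 and 2947 elsewhere, lowest in the shallow WT naive 2 (log2 difference 0.86, SE 0.13, adjusted p = 0.000162). *Pkm* read 4529, 5072 and 14839 in WT naive libraries 1 to 3, 5569, 5708 and 15350.0 in WT IFN-γ, 13016, 5061 and 4509 in KO naive, and 4096, 14959 and 5117 in KO IFN-γ. The 4 R-09 values stood far above the others (1.61, SE 0.08, adjusted p = 1.68e-08). Outside R-09 the 2 WT IFN-γ libraries lay above the other 6, and the remaining 3 groups overlapped.

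*Eno1* read 4689.7, 6908 and 14312 in WT naive libraries 1 to 3, 6482, 6277 and 15225 in WT IFN-γ, 10524, 6829 and 4728 in KO naive, and 5580.4, 12394 and 7534 in KO IFN-γ. Its R-09 values were again the highest of each group (log2 difference 1.23, SE 0.10, adjusted p = 9.7e-07). *Eno1b* is a near-identical copy of *Eno1*, so the split of reads between them is uncertain, and the counting of shared reads is not given in the sources used here. *Eno1b* lay between 6114 and 8198 normalized counts in R-09 and between 31.6 and 437 in the other 8 libraries, and it made up 28.7 to 43.8% of the sum of both genes in R-09 against 0.456 to 8.46% in FL-06 and 1.49 to 2.80% in R-07. The sum of both was 18722 to 21339 in R-09, 4772 to 6940.1 in FL-06 and 6932 to 7751 in R-07, and the sum in R-09 did not overlap the others.

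*Ldha* converts pyruvate to lactate and restores the NAD+ that glycolysis needs. It read 6273, 7506 and 35672 in WT naive libraries 1 to 3, 7902, 8358 and 40829.9 in WT IFN-γ, 37592, 7869 and 7059 in KO naive, and 7297, 34949 and 9015 in KO IFN-γ. The level was 37261 ± 2628 in R-09 (mean ± SD, n = 4) and 7399 ± 718 in FL-06 (n = 6), with no overlap and with 1 high library in each group. The log2 difference was 2.35 (SE 0.08), with the smallest adjusted p of the 10 genes, 5.54e-10, and lay between 2.26 and 2.41 within each group.

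The difference between R-09 and FL-06 followed transcript length across genes. Over the 10736 tested genes with a transcript in GENCODE M21, 99.3% of those tested, the Spearman correlation of the log2 difference with the length of the longest transcript was -0.57, a description over genes measured in the same libraries. From the eighth of genes with the shortest transcripts to the eighth with the longest, the median log2 difference went from 1.52 to -2.24. The 3 members that were lower in R-09 have the 3 longest transcripts of the 10: 4278 bases for *Hk1*, 4724 for *Hif1a* and 5513 for *Hk2*. The 7 that were higher range from 1549 bases for *Aldoa* to 3730 for *Pfkl*. Within its own eighth of similar length, *Ldha* (1815 bases) exceeded 79.7% of genes, *Pfkl* 84.4% and *Pkm* 72.5%, whereas *Hif1a* exceeded 54.2%, *Gpi1* 51.7%, *Aldoa* 55.4%, *Hk1* 29.4% and *Hk2* 17.0%. *Pgk1* exceeded 35.9% and *Eno1* 59.6% of genes of similar length, and the part of length in the difference was not tested.

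**Figure D2:**
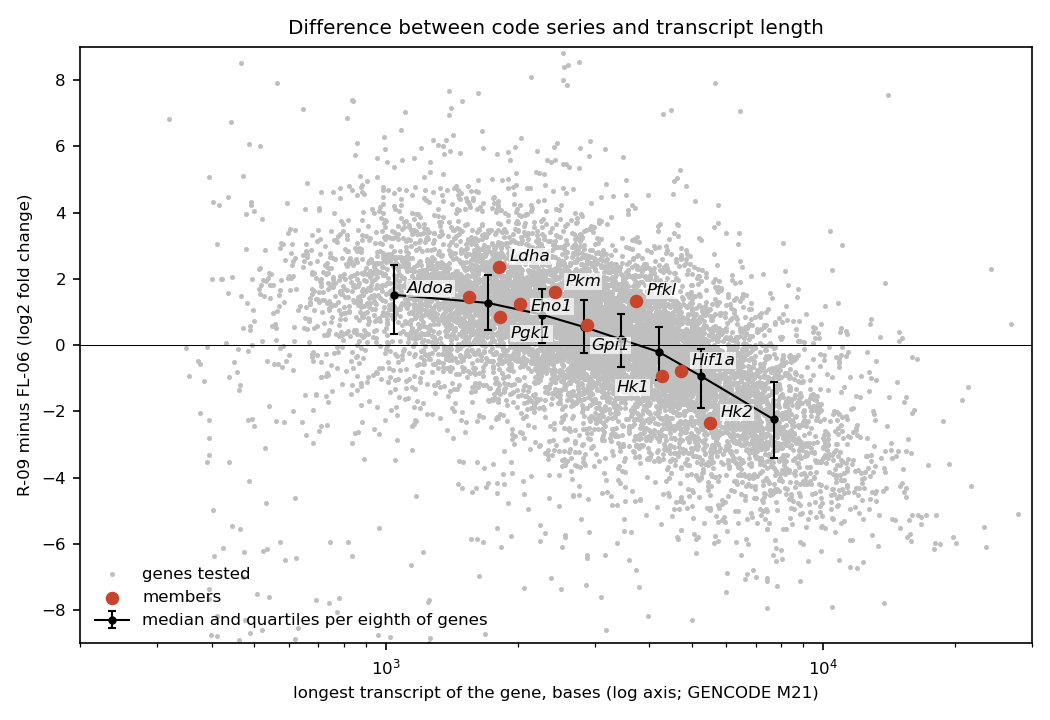
Log2 difference between the R-09 and FL-06 libraries against the length of the gene's longest transcript (log axis) for 10715 genes (grey; a further 21 lie outside the axes) and the 10 members (red), with the median and quartiles of each eighth of genes by length (black). The median falls with length from 1.52 to -2.24, and *Ldha* and *Pfkl* lie above, and *Hk2* below, the quartiles of their eighths.

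Markers of other cells also differed between the code series. The summed level of 14 neutrophil markers was 98748 to 210101 normalized counts in R-09 and 9064 to 15794 in the other 8 libraries. Of the 13 tested, 12 were higher in R-09, where 35.6% of all genes tested were higher. The 11 monocyte and macrophage markers summed to 3032 to 6905 in R-09 against 177 to 388, with *Cd14* and *Ms4a7* at 0 in all of the other 8. The genes of the markers gated against, *Cd34* and *Cd48*, summed to 3506 to 4096 against 513 to 940. The 12 HSC identity genes summed to 32769 to 41754 in R-09 and 28245 to 33560 elsewhere, so genes of the labelled cell type were present in every library. Megakaryocyte and platelet markers (8 genes) summed to 36293 to 41270 against 10418 to 14312, erythroid markers to 4712 to 10210 against 2626 to 4866, mature B and plasma cell markers to 1069 to 1319 against 50.8 to 310 and mature T and NK cell markers to 3322 to 3900 against 33.6 to 365, with *Cd3e* at 0 in all 12 libraries. Endothelial and stromal markers were the exception, at 644 to 802 against 865 to 1240. The T and NK sum in R-09 was mostly that of *Nkg7*, at 3208 to 3732 in R-09 and 33.6 to 304 elsewhere. Of those 8 markers 2 were tested, and 1 was higher in R-09. *Cd79b* alone read 825 to 926 of the B and plasma cell sum in R-09. The part of these cells' RNA in the glycolysis differences was not tested.

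Other glycolysis enzymes differed in both directions between R-09 and FL-06, with 9 of 12 tested genes higher and 2 lower and a median log2 difference of 1.88, where all genes tested gave 35.6% higher, 32.3% lower and a median of 0.23. *Tpi1*, which interconverts the triose phosphates, was 5.32-fold higher (log2 difference 2.41, SE 0.16, adjusted p = 1.32e-07), with 9382 to 10948 normalized counts in R-09 and 1444 to 2774 elsewhere. *Gapdh*, the enzyme that oxidises glyceraldehyde 3-phosphate, and *Pgam1*, phosphoglycerate mutase, were higher by 1.75 and 1.98 on the log2 scale. *Pklr*, the liver and red cell pyruvate kinase, went the other way from *Pkm*, at 239 to 338 normalized counts in R-09 and 1607 to 2718 elsewhere. Of 7 glucose and lactate transporters, 4 were higher and 0 lower (35.6% and 32.3% over all genes), among them *Slc2a1*, the widely expressed glucose transporter (1.82, SE 0.38), and *Bsg*, the chaperone of the lactate carriers (0.66, SE 0.12).

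The genes that govern HIF, and its targets outside glycolysis, were read against the same background of 35.6% higher and 32.3% lower. Of 9 HIF subunits and oxygen sensors, 3 were higher and 4 lower in R-09, shares near that background, with a median of -0.67. *Arnt*, the partner that HIF-1α needs to bind DNA, was lower in R-09 (log2 difference -1.28, SE 0.22), in the same direction as *Hif1a*. The prolyl hydroxylases that mark HIF-1α for degradation went apart: *Egln1* was lower (-3.03, SE 0.41) and *Egln2* higher by 2.64-fold (SE 0.13 on the log2 scale). Of 15 HIF targets outside glycolysis, 7 were higher and 2 lower, with a median of 0.56 against 0.23 over all genes, and with *Bnip3*, a mitophagy receptor, at 1.58 (SE 0.27) and *Plin2*, a lipid droplet coat protein, at 1.59 (SE 0.17).

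Genes that steer carbon away from or beyond glycolysis gave 6 higher and 3 lower of 13 flux regulators and pyruvate-entry genes, and 5 higher and 1 lower of 7 pentose phosphate genes, beside 35.6% higher and 32.3% lower over all genes. *Mpc1* and *Mpc2*, the subunits of the mitochondrial pyruvate carrier, were higher by 2.20 and 2.70 on the log2 scale, and *Pfkfb3*, which makes the activator of phosphofructokinase, was lower (-1.60, SE 0.23). In the pentose phosphate pathway *Rpia*, ribose 5-phosphate isomerase, read at most 42.4 normalized counts in R-09 and 1504 to 2058 in the other 8 libraries. Its log2 difference of -6.10 (SE 0.27, adjusted p = 5.56e-09) was larger in size than that of any of the 10 genes, while *Pgls*, the lactonase upstream in the same pathway, was higher by 2.67 (SE 0.23).

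**Figure D3:**
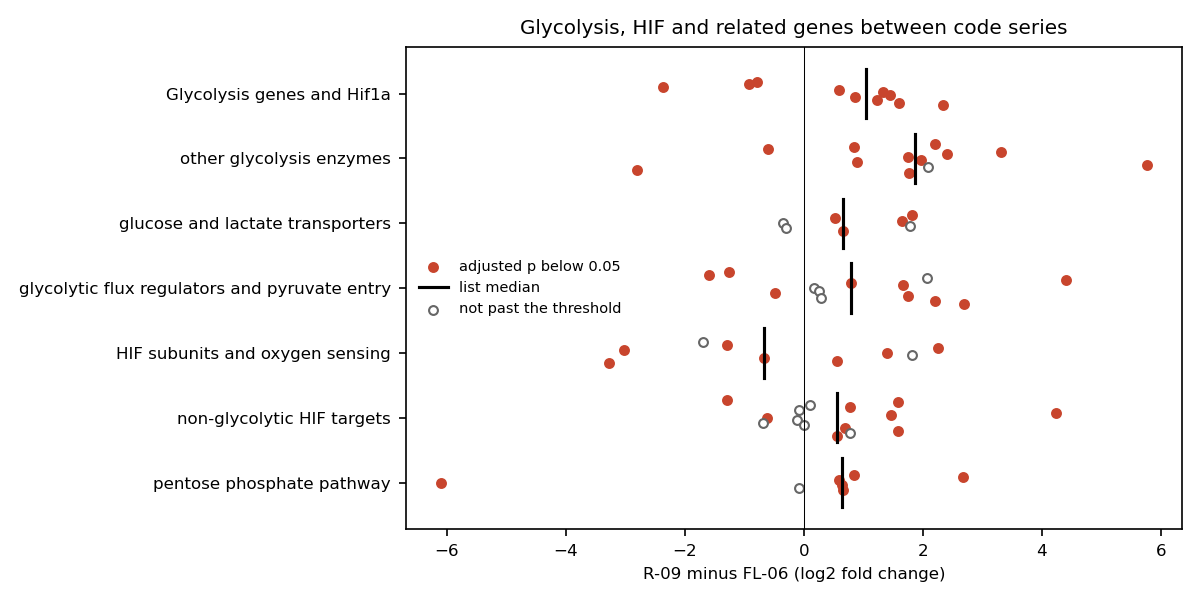
Log2 difference between R-09 and FL-06 libraries for the tested genes of each list, with filled points past the threshold, open points not past it, and a bar at the list's median. All 10 members are past the threshold, with a median of 1.04, against 1.88 for the other glycolysis enzymes and -0.67 for the HIF subunits and oxygen sensors.

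The design also set libraries from IFN-γ-treated mice against naive ones. Averaged over both genotypes and with the code series held in the model, 0 of the 10 genes passed the threshold (background 0.0647%, 7 of 10816 genes, all higher), and 0 had an unadjusted p under 0.05. All 10 estimates were above 0, as were 61.4% of those of all genes tested, and their median was 0.09 against 0.07 over all genes. Apart from *Hk2* the 9 estimates lay between 0.02 and 0.24 on the log2 scale, with 95% intervals that together span a fold of 0.843 to 1.42. *Hk2* had the highest estimate, 0.37 (SE 0.23, adjusted p = 0.80). The lowest were those of *Pfkl* (0.02) and *Hif1a* (0.05), whose sign turned when single KO libraries were left out (to -0.03 and -0.02). Without the 4 R-09 libraries, a setting chosen after seeing the data, 0 of the 10 passed either.

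**Figure D4:**
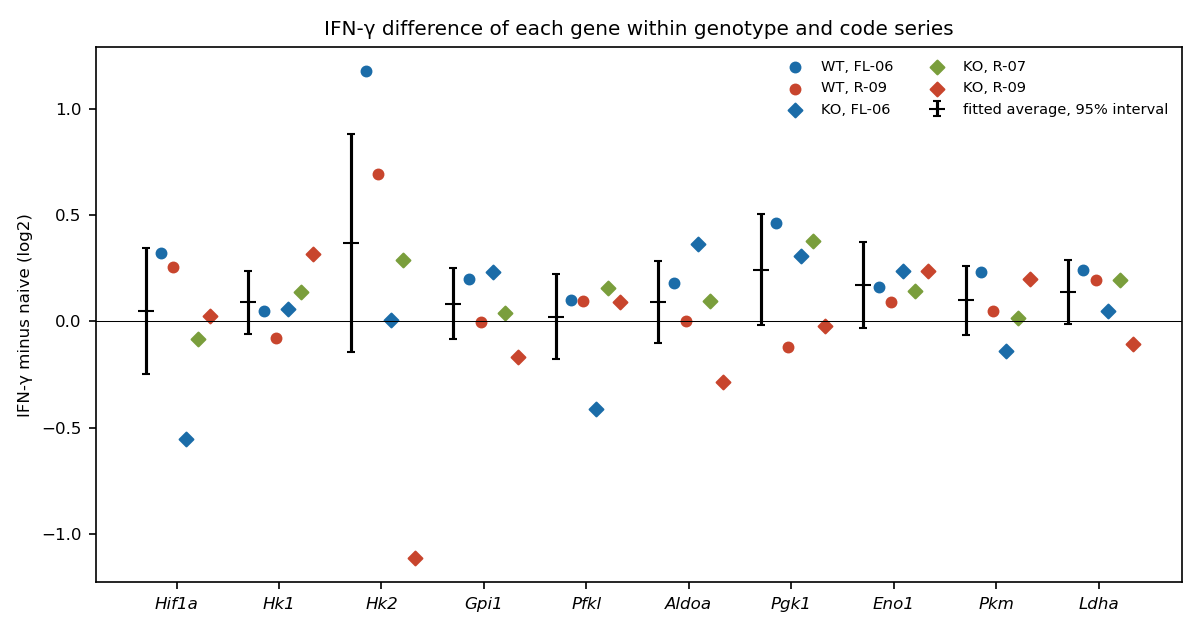
IFN-γ minus naive difference on the log2 scale for each gene within each genotype and code series (circles WT, diamonds KO, colour for the code series) beside the fitted average over genotypes with its 95% interval (black). Every interval includes 0. *Eno1*, taken without its near-identical copy *Eno1b*, is above 0 in all 5 comparisons, while *Hk2* runs from -1.11 to 1.18.

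Within 1 genotype and 1 code series, IFN-γ libraries could be set against naive ones 5 times. *Eno1* was higher in 5 of 5, by 0.09 to 0.24 on the log2 scale, with the WT FL-06 difference at 0.16 but at 0.44 without the shallow WT naive 2, and the other 9 genes were higher in 3 or 4 of 5. The same libraries enter the fit, and the share of all genes higher in 5 of 5 was not computed. Within R-09, *Eno1b* differed by -0.16 in WT and -0.23 in KO, and outside R-09 it went in both directions at low values. The sum of *Eno1* and *Eno1b* in R-09 went from 21159 to 21339 in WT and from 18722 to 19403.5 in KO. The part of the read split in the *Eno1* differences was not tested. In WT, 0 of 10 passed (background 0.00925%, 1 gene, and 0 genes with the replicate number as a block), 10 estimates were above 0 against 62.2% of all genes, and 2 had an unadjusted p under 0.05, as did 804 of the 10816 genes tested. The 2 members with an unadjusted p under 0.05 were *Hk2* (1.01, SE 0.33, adjusted p = 0.62) and *Ldha* (0.23, SE 0.10, adjusted p = 0.63). The estimates of *Hk1* and *Eno1* in WT went below 0 under some alternatives (lowest -0.06 and -0.03). *Hk2* in WT was higher after IFN-γ in FL-06 by 1.18 and in R-09 by 0.69, and without the shallow WT naive 2 the FL-06 difference was 0.82. In KO, 0 of 10 passed (background 0.0%) and 0 had an unadjusted p under 0.05. *Hk2* there differed by 0.01 within FL-06, by 0.29 within R-07 and by -1.11 within the R-09 libraries, for a fitted -0.27 (SE 0.33, adjusted p = 1.00), and *Hif1a* was fitted at -0.20 (SE 0.19). Without the 4 R-09 libraries the *Hk2* estimate in KO was 0.15, so its direction there rested on 1 pair of libraries.

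The IFN-γ effect was also compared between genotypes. Of the 10 genes, 0 passed the threshold for a difference between the KO and WT effects (background 0.0%, with 367 of 10816 genes at an unadjusted p under 0.05). *Hk2* had the lowest estimate, -1.29 (SE 0.47, adjusted p = 0.93), followed by *Hif1a* at -0.50 (SE 0.27, adjusted p = 0.93). The other 8 lay between -0.18 and 0.17, beside a median of -0.11 over all genes.

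Loss of *Bst2* gave 0 of 10 genes past the threshold in naive mice (background 0.0%, 702 genes at an unadjusted p under 0.05) and 0 of 10 after IFN-γ (background 0.0%, 226 genes). In naive libraries *Hk2* was estimated 2.25-fold higher in KO (log2 1.17, SE 0.35, adjusted p = 0.71), with 1.26 in R-09 and 1.24 in FL-06, or 0.89 when WT naive 2 was left out of the latter. *Eno1* was estimated lower (-0.32, SE 0.14, adjusted p = 0.71), and it was lower in KO in 4 of 4 comparisons within a treatment and code series, by -0.44 to -0.19. The FL-06 comparison in naive libraries rests on the shallow WT naive 2: it was -0.27 with that library and 0.01 without it, which leaves 3 of 4 lower. The near-identical copy *Eno1b* was estimated higher in KO in naive libraries. Within R-09 it was higher in KO by 0.26 in naive libraries and 0.20 after IFN-γ. In FL-06 it went in both directions at low values. The sum of *Eno1* and *Eno1b* in R-09 was 21159 in WT and 18722 in KO in naive libraries. After IFN-γ the sum was 21339 in WT and 19403.5 in KO. The part of the read split in these *Eno1* differences was not tested. After IFN-γ, *Hk1* was estimated higher in KO (0.26, SE 0.10) and *Pkm* lower (-0.28, SE 0.11), both with an unadjusted p under 0.05 and an adjusted p of 1.00. The sizes differed between code series: *Hk1* by 0.48 in R-09 and 0.10 in FL-06, *Pkm* by -0.04 in R-09 and -0.46 in FL-06. *Hk1* was higher in KO in 4 of 4 comparisons within a treatment and code series, and *Pkm* lower in 4 of 4, although its FL-06 difference in naive libraries was -0.09 with WT naive 2 and -0.01 without it. These comparisons reuse the libraries of the fit, and the share of all genes with the same sign in 4 of 4 was not computed. The comparison of genotypes in naive mice and that of IFN-γ in WT share the 3 WT naive libraries.

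R-07, whose 2 libraries are both KO, differed less from FL-06. Of the 10 genes 0 passed (background 3.57%, 386 of 10816 genes, 58 or 0.536% higher and 328 or 3.03% lower, against 159 higher and 286 lower with quantile normalization). The highest estimate was that of *Eno1* (0.52, SE 0.15, adjusted p = 0.086) and the lowest that of *Hk2* (-0.52, SE 0.37, adjusted p = 0.59), and 7 of the 10 were above 0.

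The genes most like *Hif1a* over the 12 libraries, by the root mean square difference of log2 values after centring each gene, were *Rrs1* (0.135), *Atp6v0a2* (0.140) and *Dnajc10* (0.154), where the median over 9269 genes was 0.789. Closest to the mean of the 9 enzymes were *Mbd3* (0.105), *Ap2m1* (0.113) and *Cfl1* (0.113), with a median of 0.688. That mean joins enzymes that were higher in R-09 with hexokinases that were lower. Each matched gene also passed the threshold between R-09 and FL-06, as did 68.0% of all genes tested. The differences were -0.56, -0.72 and -0.84 for those like *Hif1a* and 0.80, 0.80 and 0.61 for those like the enzymes. The genes were chosen for likeness over the same 12 libraries, R-09 included, so their passing is no separate result. The part of the code series in this likeness was not tested. Among the members themselves *Pfkl* and *Pkm* were the most alike (0.170), followed by *Pfkl* and *Aldoa* (0.212), and *Hif1a* was nearest to *Hk1* (0.286).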

How the data were processed

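RNA from 12 sorted HSC libraries was sequenced, and the authors deposited 1 table of normalized counts per gene, a signal that is never negative. Per the submitters' processing notes STAR and DESeq were used, with no version or role stated, and build, annotation and counting settings were not given in the labels read here. Each library's step was taken as its smallest value seen at least 3 times. Only 2.28 to 4.60% of a library's values were whole multiples of its step (within 0.01). Whole reads could therefore not be had, and the limma fit planned for normalized values was used instead of a count model. Of 24972 rows, 26 with names turned into dates were left out. Values were analysed as log2(value + 1), which understates fold changes of low genes, and genes with at least 100 units in at least 3 libraries (10816) were tested. limma 3.58.1 (trend, R 4.3.3) fitted 4 group means and the code series to all 12 libraries (6 residual degrees of freedom), with Benjamini-Hochberg adjustment over all genes, after checks on simulated data. Same-numbered WT libraries share a code series and same-numbered KO libraries do not. Deviations from the group means correlated at 0.46 to 0.83 between same-numbered WT libraries and at -0.69 to 0.50 between KO ones. The code series was not removed from these deviations, so the correlations cannot show whether the numbers pair libraries. The fit with the number as a block was an alternative. Within groups no 2 libraries held like values (at most 1.15% identical). Named genes were the 10 members, up to 4 genes per list with the smallest adjusted p among those past the threshold (otherwise the 2 highest), the 3 genes most like *Hif1a* and the enzymes' mean, and *Bst2*. Members and lists were chosen with earlier results of these data known. Alternatives were pseudocount 10, a minimum of 10 units, no filter, no code series, a replicate block, quantile normalization, library quality weights, leaving out each library, and, chosen after seeing the data, leaving out the 4 R-09 libraries. Upstream sequences are RefSeq's (GRCm38.p6).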

Additional observations from a re-analysis of the deposited data

How the results depend on the processing

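The 10 calls between R-09 and FL-06 kept direction and threshold in all 18 alternatives that hold both code series, from 0.55 to 2.92 for the 7 higher genes and -2.51 to -0.61 for the 3 lower ones, and the members' median moved to 1.31 with quantile normalization. Of the other genes named for this difference, *Slc2a3* missed the threshold without WT IFN-γ 3 (0.39, adjusted p = 0.068). No member passed in the IFN-γ and genotype comparisons under any alternative (smallest adjusted p 0.25, *Hk2* in WT). In R-07 against FL-06, 4 members passed with quantile normalization (median 0.43), 1 with quality weights and 1 without WT naive 1 or without WT naive 2, *Eno1* each time, so leaving out 1 library gave 0 to 1. Over all 10 genes and the 7 comparisons other than R-09 against FL-06, 23 of 70 estimates changed sign under at least 1 alternative, and 0 of 10 did for R-09 against FL-06. Among the estimates printed above, the turned ones were *Pfkl* averaged over genotypes at -0.014 without the 4 R-09 libraries, *Hk2* in KO at 0.15 without them, and with 1 library out *Pfkl* at -0.031 to -0.015 (KO naive 2, KO IFN-γ 2 or 3), *Hif1a* at -0.017 and *Hk2* in KO at 0.082 (both KO IFN-γ 2), as well as *Hk1* in WT at -0.058 with quantile normalization. With 1 library out the estimates ranged from -0.031 to 0.096 for *Pfkl*, -0.017 to 0.14 for *Hif1a*, -0.55 to 0.082 for *Hk2* in KO, -0.035 to 0.074 for *Hk1* in WT and -0.029 (without WT naive 1) to 0.27 for *Eno1* in WT.

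Counts over all genes moved more, and the cause was not tested. IFN-γ in WT called 5 genes with pseudocount 10, 2 with no filter, 0 with no code series, 0 with the replicate block, 4 with quantile normalization, 9 with quality weights, 2 without R-09 and 0 to 13 with 1 library out. IFN-γ in KO called 7 with quantile normalization, 7 with quality weights and 0 to 7 with 1 library out. Averaged, IFN-γ called 13 with pseudocount 10, 0 with no code series, 29 with quantile normalization, 42 with quality weights, 21 without R-09 and 3 to 22 with 1 library out. KO minus WT called 0 to 2 in naive mice and 0 to 1 after IFN-γ with 1 library out, and 2 after IFN-γ without R-09. The interaction called 0 to 2 with 1 library out and 1 without R-09. R-07 against FL-06 called 169 with the replicate block, 838 with quality weights, 237 without R-09, and 2 (without KO naive 2) to 932 (without WT naive 2) with 1 library out. The replicate block changed no call on a member. With 3 libraries a group and WT naive 2 at about 0.495 M reads by the rough estimate, precision was limited. The *Hk2* estimates for IFN-γ in WT and for KO in naive mice were past an unadjusted p of 0.05 and missed the threshold after adjustment over 10816 genes.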

Other observations

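The enzymes other than *Hk2* had small moderated residual SDs once group and code series were held. These SDs were 0.12 for *Hk1*, 0.12 for *Ldha*, 0.13 for *Pkm* and 0.13 for *Gpi1* on the log2 scale, and 0.490%, 0.555%, 1.05% and 1.39% of the genes tested had a smaller one. They were 0.15 for *Aldoa*, 0.16 for *Pfkl* and 0.16 for *Eno1*, with 3.88%, 4.65% and 4.93% of genes below. *Pgk1* had the largest of these enzymes, 0.21, with 14.2% below it. The moderated residual SD of *Hif1a* was 0.23, with 20.1% of genes below it, and that of *Hk2* was 0.40, with 52.1% below it. Because moderation draws each SD towards the trend with level, these ranks can partly reflect level, which was not tested. Over the 8 libraries outside R-09, the SD of *Hk1* was 0.07 and that of *Hk2* 0.58, or 0.39 for *Hk2* without WT naive 2.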
